A study of Mus musculus with 27 samples.

Results

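The 10 genes described here are markers of the brain endothelium and of the blood-brain barrier that it forms: Pecam1, Cdh5, Cldn5, Slc2a1, Mfsd2a, Kdr, Flt1, Tek, Abcb1a and Slco1c1. They were found in the gene read-count table by symbol and are 10 of its 55416 genes. RNA of the whole brain of mouse fetuses was sequenced in 27 libraries, with 3 libraries in each of the 9 groups made by 3 strains and by gestational days (d) 12, 15 and 17, where the day of the vaginal plug is day 1. The strains were AKR/J, C57BL/6J and B6.Cg-Cav1tm1Mls/J, called Cav1-null, and every fetus was labelled female. Neither AKR/J nor C57BL/6J, both inbred, carried an engineered allele or was treated. Cav1-null mice carry the inactivated Cav1 allele in all tissues from conception, on a C57BL/6 background as the B6.Cg of the strain name says, so that no comparison isolates the endothelium. The labels do not say which fetuses of a group shared a litter, so p-values measure the spread between these fetuses. The step from d12 to d15 is called the early phase and the step from d15 to d17 the late phase.

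Brain capillaries differ from most other capillaries in that their endothelial cells are sealed to each other by tight junctions, take up few vesicles from the blood, and carry transporters that let chosen nutrients in and pump foreign compounds out. Vessels grow into the embryonic brain under signals of the vascular endothelial growth factor (VEGF) family, and Wnt ligands made by neural progenitors induce the barrier traits in them as they enter. Caveolae are flask-shaped pits of the plasma membrane that are dense in many endothelia and sparse in brain capillaries, and caveolin-1, the product of Cav1, is the protein that builds their coat. Because Cav1 is itself expressed by endothelial cells, the strain that lacks it was set against the other strains for each of the 10 genes.

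The junction table of the study gives the reads that cross each retained splice junction, and these reads show that the spliced transcript of a gene was present. The joined exon ends of 4 junctions that carry results below are shown in transcript direction, read from GRCm39, with the last 15 bases of the upstream exon in lower case and the first 15 bases of the downstream exon in capitals.
Cdh5, intron chr8:104828365-104839511, plus strand: ctgctcacggacaagATCAGCTCCTCCACG
Kdr, intron chr5:76122506-76123369, minus strand: ctcctacagacccggCCAAACAAGCCCGTA
Tek, intron chr4:94699654-94708320, plus strand: agtgtgagaaagaagGCAGGCCAAGGATGA
Slco1c1, intron chr6:141513298-141515031, plus strand: ctcccacgctttcagACACATATACCTGGG
Each of these introns starts with GT and ends with AG. Of the 10 genes, 9 had at least 1 junction in the table, and Cldn5, whose annotated gene spans only 1416 bases, had 0.

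The knockout was checked first. Between 0 and 16 reads were counted on Cav1 in the 9 Cav1-null libraries, which is at most 0.509 CPM. This unit is a read count scaled to a fixed effective library size, which is the number of reads on genes times a TMM factor of 0.68 to 1.12. AKR/J libraries had 9.25 to 34.2 CPM and C57BL/6J libraries 10.3 to 39.9 CPM, so that the level of Cav1 told every Cav1-null library from the others. Cav1 does not tell AKR/J from C57BL/6J or 1 day from another.

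Depth was 26363697 to 39759702 reads on genes per library. The libraries also differed in base composition. As a measure of this, the median log2 deviation of 563 short genes of low GC content was subtracted from that of 450 long genes of high GC content in each library. It was 1.11 to 1.21 in 5 libraries, namely all 3 of C57BL/6J on d15, replicate 2 of C57BL/6J on d12 and replicate 1 of C57BL/6J on d17, and -1.16 to 0.53 in the other 22. The same 5 libraries had the lowest share of mitochondrial reads, 1.15% to 1.53% against 1.57% to 9.59%. No Cav1-null or AKR/J library was among them. Among the AKR/J libraries of d12, the summed expression of 10 erythroid genes was 33211 to 197846 CPM, against 569 to 18614 CPM in all other groups.

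Members that hold endothelial cells together were expressed in all 27 libraries. Pecam1 (ENSMUSG00000020717, chromosome 11 from 106543689 to 106641454, minus strand), an adhesion molecule of endothelial cells, platelets and leukocytes, ranged from 6.88 to 31.1 CPM. On d15 Pecam1 was 31.1, 24.6 and 29.3 CPM in C57BL/6J, 10.01, 11.7 and 9.42 CPM in Cav1-null, and 14.9, 23.0 and 16.1 CPM in AKR/J, so that no library of one strain reached another strain. Cdh5 (ENSMUSG00000031871, chromosome 8 from 104828231 to 104871143, plus strand) encodes VE-cadherin, the cadherin of endothelial adherens junctions. In C57BL/6J, Cdh5 was 17.8, 59.6 and 22.1 CPM on d12, 62.3, 38.4 and 48.1 CPM on d15, and 36.0, 4.995 and 11.1 CPM on d17. In Cav1-null, Cdh5 was 7.89, 7.31 and 15.0 CPM on d12, 6.24, 5.002 and 5.35 CPM on d15, and 6.59, 2.78 and 3.44 CPM on d17. In AKR/J, it was 13.6, 9.05 and 14.1 CPM on d12, 7.60, 13.4 and 13.3 CPM on d15, and 5.35, 4.41 and 3.91 CPM on d17. The 5 libraries above 30 CPM were the 5 of C57BL/6J with the shifted base composition, and on d17 replicate 2 of C57BL/6J lay within the range of the other strains and replicate 3, at 11.1 CPM, above their highest library, at 6.59 CPM. When the 9 groups were ordered by mean, C57BL/6J on d15 came first and Cav1-null on d17 last, and of the 8 pairs of neighbours 7 overlapped. Cldn5 (ENSMUSG00000041378, chromosome 16 from 18595597 to 18597012, plus strand), the main claudin of brain tight junctions, had the highest level per length of the 10, at a mean of 18.5 CPM per kilobase of transcript, and ranged from 7.50 to 70.1 CPM. On d15 Cldn5 was 50.9, 40.9 and 57.4 CPM in C57BL/6J, 23.0, 19.4 and 15.2 CPM in Cav1-null, and 25.6, 19.5 and 28.3 CPM in AKR/J. Here C57BL/6J was apart and the other strains overlapped.

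Receptors of vascular growth factors were also highest in C57BL/6J. Kdr (ENSMUSG00000062960, chromosome 5 from 76093487 to 76139884, minus strand) encodes VEGF receptor 2, which drives vessel growth. In C57BL/6J, Kdr was 34.1, 81.0 and 33.4 CPM on d12, 73.6, 56.96 and 75.2 CPM on d15, and 65.5, 18.4 and 23.4 CPM on d17. In Cav1-null, Kdr was 19.0, 17.8 and 32.1 CPM on d12, 15.9, 13.9 and 14.3 CPM on d15, and 21.0, 15.5 and 16.1 CPM on d17. AKR/J libraries had 11.5 to 28.3 CPM of Kdr. Every C57BL/6J library exceeded every Cav1-null library on d12 and d15, and the strains overlapped on d17. Flt1 (ENSMUSG00000029648, chromosome 5 from 147498414 to 147662826, minus strand), VEGF receptor 1, binds VEGF and limits what reaches Kdr, in part as a soluble form. Flt1 was 6.24 to 38.7 CPM over all libraries, and in Cav1-null 9.71, 9.73 and 14.7 CPM on d12, 9.62, 9.04 and 6.24 CPM on d15, and 20.4, 23.1 and 16.6 CPM on d17. All 3 Cav1-null libraries of d17 were higher than the 6 of the earlier days. In C57BL/6J, Flt1 was 14.9, 26.4 and 15.97 CPM on d12, 28.3, 23.5 and 28.8 CPM on d15, and 38.7, 18.6 and 19.9 CPM on d17. Tek (ENSMUSG00000006386, chromosome 4 from 94627291 to 94763224, plus strand) encodes the angiopoietin receptor TIE2 and was 3.94 to 21.4 CPM, with its highest value in a C57BL/6J library of d15. On that day Tek was 21.4, 14.7 and 17.1 CPM in C57BL/6J and 8.51, 6.75 and 6.30 CPM in Cav1-null, which did not overlap.

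Transporters were less alike. Slc2a1 (ENSMUSG00000028645, chromosome 4 from 118965908 to 118996365, plus strand) encodes the glucose transporter GLUT1, which is also found on red cells and in many growing tissues. In C57BL/6J, Slc2a1 was 62.6, 99.5 and 59.0 CPM on d12, 69.6, 68.8 and 74.5 CPM on d15, and 62.3, 17.9 and 30.4 CPM on d17. In Cav1-null, it was 37.0, 35.4 and 34.8 CPM on d12, 18.5, 16.9 and 15.6 CPM on d15, and 17.95, 24.6 and 14.2 CPM on d17. In AKR/J, it was 84.9, 52.2 and 55.7 CPM on d12, 29.3, 30.1 and 42.6 CPM on d15, and 16.9, 12.0 and 15.6 CPM on d17. The AKR/J values of d12 were near those of C57BL/6J, and these AKR/J libraries were those with the high erythroid sum. In order of replicates that sum was 101694, 33211 and 197846 CPM, and the part of erythroid cells in the values of Slc2a1 was not tested. Mfsd2a (ENSMUSG00000028655, chromosome 4 from 122840643 to 122855244, minus strand), a carrier of lysophospholipids that holds back vesicle transport across the barrier, was 8.41 to 28.6 CPM. On d15 it was 25.5, 26.9 and 28.6 CPM in C57BL/6J and 13.8, 10.9 and 10.3 CPM in Cav1-null, and on d17 Cav1-null had 9.59 to 11.1 CPM, a range that held 1 C57BL/6J library, at 10.3 CPM, while the next lowest was at 17.2 CPM. Abcb1a (ENSMUSG00000040584, chromosome 5 from 8710022 to 8798575, plus strand) encodes the drug efflux pump P-glycoprotein and had the lowest level per length, at a mean of 0.893 CPM per kilobase. Its values of 1.58 to 11.5 CPM rest on as few as 32 reads, and reads may have been divided between it and its near copy Abcb1b, which had 32.5 CPM in replicate 1 of AKR/J on d12, 7.46 CPM in replicate 2 of C57BL/6J on d15 and at most 3.59 CPM elsewhere. On d15 Abcb1a was 6.70, 5.04 and 9.49 CPM in C57BL/6J and 2.48, 3.10 and 2.37 CPM in Cav1-null, without overlap.

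Slco1c1 (ENSMUSG00000030235, chromosome 6 from 141469705 to 141516710, plus strand) encodes OATP1C1, a carrier of thyroid hormone in brain endothelium and choroid plexus epithelium, and its values followed the day more than the strain. In AKR/J, Slco1c1 was 1.65, 1.12 and 3.10 CPM on d12, 17.7, 15.2 and 16.2 CPM on d15, and 31.5, 28.2 and 31.3 CPM on d17. In C57BL/6J, it was 9.06, 8.61 and 4.32 CPM on d12, 16.1, 16.1 and 15.2 CPM on d15, and 39.2, 35.03 and 39.0 CPM on d17. In Cav1-null, it was 5.82, 5.69 and 17.3 CPM on d12, 21.8, 20.5 and 17.5 CPM on d15, and 32.6, 35.3 and 37.5 CPM on d17. The days were apart in every strain, though replicate 3 of Cav1-null on d12, at 17.3 CPM, lay just under the lowest d15 library of its strain, at 17.5 CPM. Across the 27 libraries, the log2 level of Slco1c1 had a correlation of 0.03 with the mean of the other members, against 0.58 for Slc2a1, 0.62 for Abcb1a and 0.80 to 0.92 for the other 7. The 36 pairs among the 9 members without Slco1c1 had a median correlation of 0.70, with the highest for Cdh5 and Kdr at 0.96. These correlations are a description over libraries that share strain, day and base composition.

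**Figure D1:**
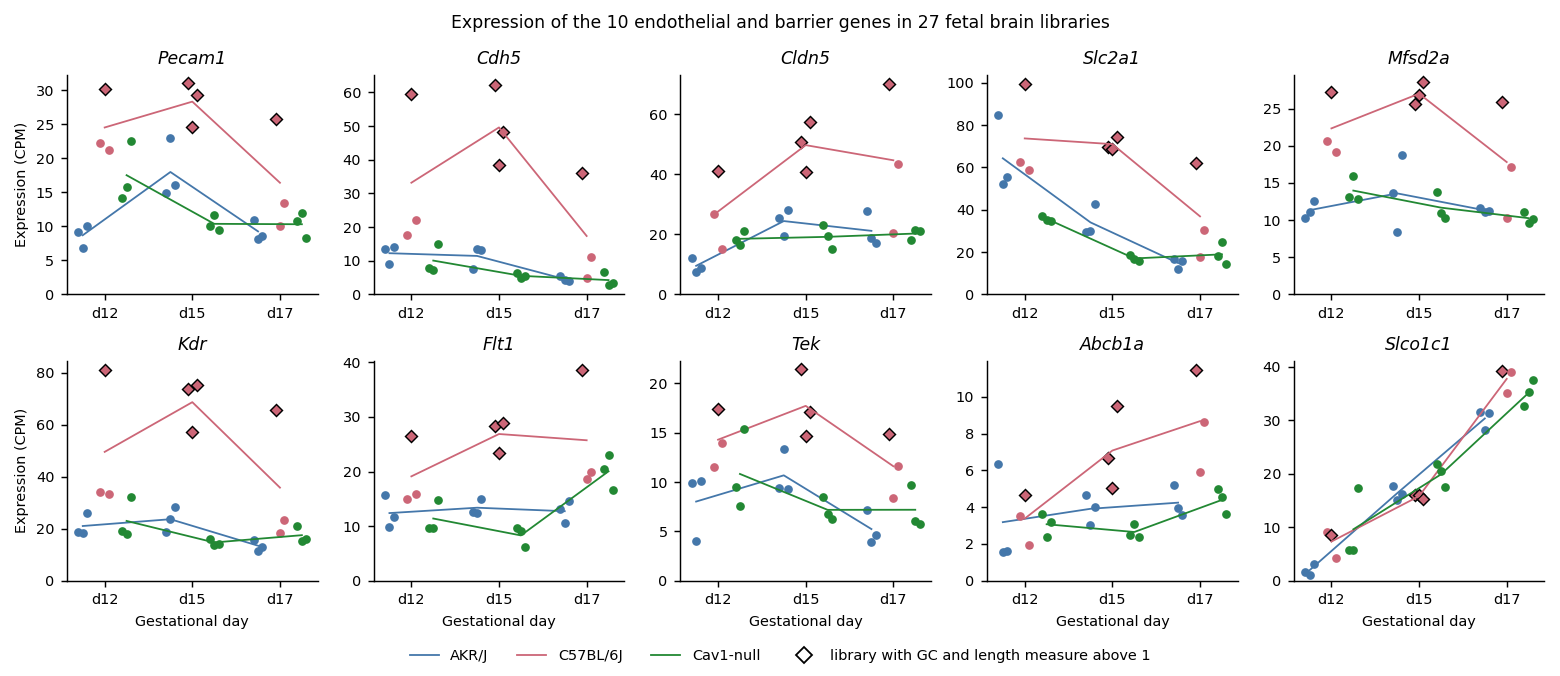
Expression of each of the 10 genes in CPM on a linear axis (vertical) by gestational day (horizontal, days evenly spaced), with 1 point per library, lines through the group means of 3 libraries, and diamonds for the 5 C57BL/6J libraries whose composition measure was 1.11 to 1.21. The diamonds lie above every other library for Pecam1, Cdh5, Mfsd2a, Kdr and Flt1, whereas Slco1c1 climbs with the day in every strain.

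The question of the main comparison was whether expression of these genes differed between Cav1-null and C57BL/6J brains of the same day. On d15, 9 of the 10 genes were lower in Cav1-null and Slco1c1 was higher. For all 10 the 3 libraries of one strain did not overlap the 3 of the other, as was so for 71.9% of the 16057 genes with a mean of at least 1 CPM in these libraries. A gene was called where edgeR's quasi-likelihood test, after Benjamini-Hochberg adjustment, gave a p under 0.05, and of all 19827 genes tested on d15, 26.8% were called higher and 31.8% lower. The median log2 fold change was -1.39 over the members and 0.03 over all genes tested. With library sizes alone in place of TMM scaling, 7192 genes were higher and 4952 lower, against 5310 and 6311 before, the median of all genes was 0.21, and 9 members were called lower and 1 higher. The replicates of the strains are fetuses of unstated litters, and in bulk RNA fewer endothelial cells and less RNA per cell cannot be told apart.

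Cdh5 showed the largest difference of the 10 on d15, with 5.53 ± 0.638 CPM (SD, n = 3) in Cav1-null and 49.6 ± 12.0 CPM in C57BL/6J. Its log2 fold change was -3.13 with a standard error (SE) of 0.19 (edgeR adjusted p = 2.68e-07), which is 8.74-fold lower in Cav1-null. Among the junction genes, Pecam1 was 10.4 ± 1.17 against 28.3 ± 3.34 CPM (log2 fold change -1.41) and Cldn5 19.2 ± 3.87 against 49.8 ± 8.31 CPM (-1.33). Kdr was 14.7 ± 1.09 against 68.6 ± 10.1 CPM, a log2 fold change of -2.18 with an SE of 0.12 (edgeR adjusted p = 1.57e-07). The other receptors were lower as well, Flt1 with 8.30 ± 1.81 against 26.9 ± 2.94 CPM (-1.65) and Tek with 7.19 ± 1.17 against 17.7 ± 3.42 CPM (-1.26).

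Slc2a1 had the smallest p-value of the members on d15, with 17.0 ± 1.45 CPM in Cav1-null and 71.0 ± 3.12 CPM in C57BL/6J and a log2 fold change of -2.02 with an SE of 0.08 (edgeR adjusted p = 3.32e-08). Mfsd2a was 11.7 ± 1.88 against 27.0 ± 1.51 CPM (-1.17), and Abcb1a 2.65 ± 0.393 against 7.08 ± 2.25 CPM (-1.38). The SEs of the 9 lower members were 0.08 to 0.25, and their adjusted p-values in edgeR were at most 0.000765. Slco1c1 was 19.9 ± 2.21 CPM in Cav1-null and 15.8 ± 0.498 CPM in C57BL/6J, a log2 fold change of 0.37 with an SE of 0.11 (edgeR adjusted p = 0.0151). The 9 lower calls held with each of the 6 libraries left out in turn, and the call of Slco1c1 held in 4 of 6, being lost without replicate 3 of C57BL/6J or replicate 1 of Cav1-null, as well as in 1 model of all 27 libraries.

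All C57BL/6J libraries of d15 and none of Cav1-null were among the 5 with the shifted base composition, so that on this day composition and strain cannot be told apart from the samples alone. The same holds for d12, where the measure was 0.23 to 1.11 in C57BL/6J and -0.45 to -0.23 in Cav1-null. On d17 it was -0.20 to 1.20 in C57BL/6J and -0.37 to 0.06 in Cav1-null. The trend of each library with GC content and transcript length was therefore removed as an offset in the fit, an alternative added after the data were seen. The 9 members were then still called lower, with log2 fold changes of -2.74 for Cdh5, -1.78 for Kdr, -1.51 for Slc2a1, -1.46 for Abcb1a, -1.27 for Cldn5, -1.26 for Pecam1, -1.17 for Mfsd2a and Tek, and -1.11 for Flt1. Slco1c1 moved to -0.07 (edgeR adjusted p = 0.665) and lost its call and its direction. In this fit 14.4% of all genes were called higher and 30.3% lower, with a median of -0.12 over all genes and -1.26 over the members.

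**Figure D2:**
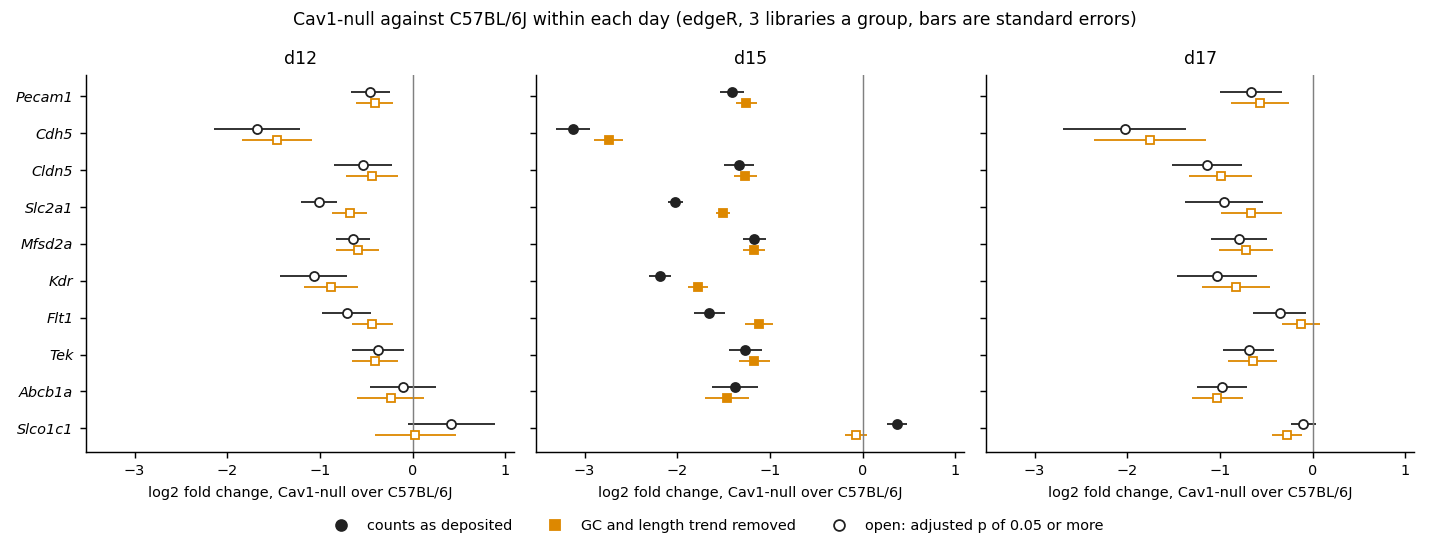
Log2 fold change of Cav1-null over C57BL/6J (horizontal) for each of the 10 genes (vertical) on d12, d15 and d17, from 3 libraries a group, with bars for the SE, filled symbols for an adjusted p under 0.05, circles for counts as deposited and squares with the GC and length trend removed. On d15 the circles run from -3.13 for Cdh5 to 0.37 for Slco1c1, and on d12 and d17 all symbols are open.

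On d12, 0 of the 10 members were called, as were 0% of all 19475 genes tested, while 5 members and 4309 genes had an unadjusted p under 0.05. Cav1 itself was thus not called, with 2, 0 and 8 reads in Cav1-null and 452, 604 and 326 in C57BL/6J. A missing call on this day therefore does not show that a level was unchanged. The median of the members was -0.59 and 9 of the 10 values were negative, with -1.68 and an SE of 0.46 for Cdh5 (edgeR adjusted p = 0.114). Libraries of the strains did not overlap for Cdh5, Slc2a1, Mfsd2a, Kdr and Flt1, and for 33.5% of the 15827 genes with a mean of at least 1 CPM. DESeq2 called 3 members lower, which were Cdh5, Slc2a1 and Mfsd2a, along with 6.31% of all genes. Without replicate 3 of C57BL/6J, edgeR called 3 members lower, which were Cdh5, Cldn5 and Slc2a1, along with 6.38% of all genes.

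On d17, 0 of the 10 members were called, as were 0.0442% of the 20358 genes tested in the lower direction and 0.00491% in the higher, and DESeq2 called 0 members as well. An unadjusted p under 0.05 was found for 7 members and 1538 genes. All 10 values were negative, with a median of -0.88. The 2 largest were -2.03 for Cdh5 (SE 0.66) and -1.14 for Cldn5 (SE 0.38), both with an edgeR adjusted p of 0.575, and only for Abcb1a did the libraries of the strains not overlap, against 12.7% of the 16306 genes with a mean of at least 1 CPM. The C57BL/6J libraries of d17 spread widely: Cdh5 was 36.0 CPM in replicate 1, 4.995 CPM in replicate 2 and 11.1 CPM in replicate 3, and replicate 1 was the one with the shifted composition. Without replicate 2 of C57BL/6J, 8 members were called lower, all but Flt1 and Slco1c1, as were 9.94% of all genes, and without any other single library 0 were called.

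Averaged over the 3 days in a fit of 18 libraries, 9 of the 10 members were lower in Cav1-null than in C57BL/6J, among 24.8% of the 22282 genes tested that were called lower and 20.3% called higher. Log2 fold changes were -2.30 for Cdh5 (SE 0.34, edgeR adjusted p = 0.000111), -1.45 for Kdr, -1.35 for Slc2a1, -1.02 for Cldn5, -0.93 for Flt1, -0.89 for Mfsd2a, -0.86 for Pecam1, -0.84 for Abcb1a and -0.79 for Tek. Slco1c1 was at 0.21 with an SE of 0.19 (edgeR adjusted p = 0.373). The members' median was -0.91 and that of all genes 0.05. Each of the 18 fits without a library gave 9 lower members, and so did the fit with the GC and length trend removed, in which 18.3% of all genes were lower and 7.49% higher. With library sizes alone, 27.6% of all genes were higher and 19.5% lower, and the same number of members was called.

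Without d15, and with all libraries of d12 and d17, 0 of the 10 members were called over days, against 0.0138% of 21675 genes in the lower and 0.00461% in the higher direction, while 9 members and 6101 genes had an unadjusted p under 0.05. The median of the members was then -0.64, with -1.86 for Cdh5 (SE 0.47, edgeR adjusted p = 0.0648). Without the 5 libraries with the shifted composition, too, only d12 and d17 could be compared, with 2 C57BL/6J libraries on each day. Then 0 of the 10 members were called, against 4 of 22363 genes, or 0.0134% in the lower and 0.00447% in the higher direction. An unadjusted p under 0.05 was found for 3 members and 3537 genes. The log2 fold change of Cdh5 was then -0.94 (SE 0.32, edgeR adjusted p = 0.216), that of Slc2a1 -0.54 (SE 0.17), that of Mfsd2a -0.45 (SE 0.16) and that of Kdr -0.39 (SE 0.18). As in the fit of all libraries, 9 values were negative and that of Slco1c1 was positive, and the median was -0.36, nearer to 0 than with all libraries of the same days. The difference between these fits was not tested. Composition was not balanced in the smaller fit either. Its C57BL/6J libraries of d12 were at 0.53 and 0.23 on the composition measure, and those of Cav1-null at -0.45 to -0.23. The mean z-score of the 10 members was 1.05 to 1.56 in the 5 libraries with the shifted composition and -1.14 to 0.51 in the others. Over the 27 libraries this mean had a Pearson correlation of 0.90 with the composition measure, given here as a description. Neural transcripts were also high in these libraries: the neuronal tubulin Tubb3 was 1662 to 1815 CPM in them and 343 to 1253 CPM in the others. The part of base composition in the strain difference on each member was not tested beyond these fits.

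**Figure D3:**
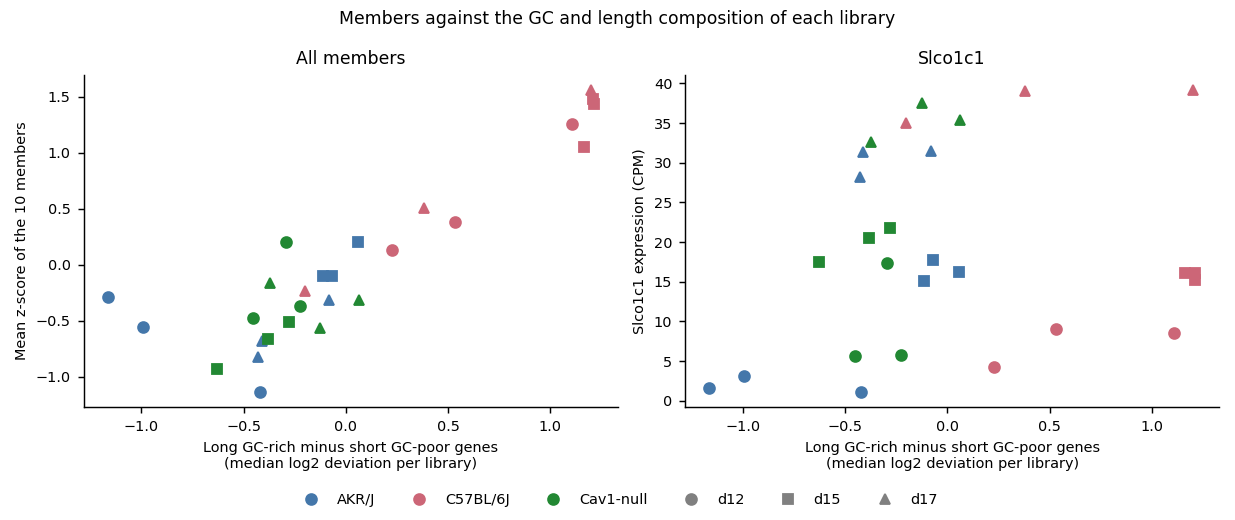
Mean z-score of log2(CPM + 1) over the 10 members (left, vertical) and expression of Slco1c1 in CPM (right, vertical) against the composition measure of each of the 27 libraries (horizontal, log2), with colours for strains and symbols for days. The 5 libraries at 1.11 to 1.21 on the horizontal axis have the highest mean z-scores, 1.05 to 1.56, whereas those 5 libraries span 8.61 to 39.2 CPM of Slco1c1.

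Cav1-null was also set beside AKR/J. Over the 3 days, Slc2a1 was lower in Cav1-null than in AKR/J (log2 fold change -0.50, edgeR adjusted p = 0.00445) and Slco1c1 higher (0.94, edgeR adjusted p = 0.00155), while 14.1% of all 22705 genes tested were called lower and 16.3% higher. Library sizes alone gave 7.64% lower and 19.5% higher with the same number of calls among the members, and removal of the GC and length trend gave 21.7% lower and 10.5% higher, with Cdh5 and Slc2a1 called lower and Slco1c1 higher. The other 8 members had log2 fold changes of -0.48 for Cdh5 to 0.18 for Cldn5. For AKR/J against C57BL/6J, 9 of the 10 members were lower in AKR/J, all but Abcb1a (-0.65, edgeR adjusted p = 0.0538), where 27.6% of the 22353 genes tested were lower and 20.3% higher. This comparison has the same C57BL/6J libraries as that of Cav1-null, so that the 2 sets of values are not independent. They were -1.82 for Cdh5, -1.39 for Kdr, -1.21 for Cldn5, -0.99 for Pecam1, -0.90 for Tek, -0.88 for Flt1, -0.87 for Mfsd2a, -0.85 for Slc2a1 and -0.73 for Slco1c1. With the GC and length trend removed, Slc2a1 and Flt1 lost their call, and 12.6% of all genes were lower and 16.1% higher.

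By day, 6 members had a positive value against AKR/J on d12, 1 on d15 and 7 on d17. On d12, Pecam1 (log2 fold change 0.97), Cldn5 (0.91) and Slco1c1 (2.27) were higher in Cav1-null and Slc2a1 (-0.89) lower, where 9.93% of the 19955 genes tested were called higher and 9.65% lower. The AKR/J libraries of d12 had a sum of 2097 to 2199 CPM over 10 neural genes, against 3534 to 4856 CPM in Cav1-null. Their sum of yolk sac genes was 55.4 to 2025 CPM, against 180 to 636 CPM. The part of these differences in the calls was not tested. With library sizes alone, 12.0% of all genes were higher and 4.81% lower. In that fit 3 members were called higher and 0 lower, so that Slc2a1 lost its call, and 9 values were positive. With the GC and length trend removed, 2.78% of all genes were higher and 16.9% lower, Slc2a1 alone among the members was still called, and 3 values were positive and 7 negative, with a median of -0.67 against -0.48 over all genes. Leaving out single libraries gave 0 to 2 calls, with 0 without replicate 3 of Cav1-null, where 6.49% of all genes were still higher and 6.20% lower. On d15, 5 members were lower in Cav1-null, where 9.60% of the 20172 genes tested were lower and 9.70% higher: Pecam1 (-0.78), Cdh5 (-1.03), Slc2a1 (-0.98), Kdr (-0.67) and Flt1 (-0.67). Without replicate 2 or replicate 3 of Cav1-null this count was 1, and without replicate 1 it was 2, while 3.94% to 4.43% of all genes were then called lower. On d17 the single call was Flt1, higher in Cav1-null by a log2 fold change of 0.66 with an SE of 0.15 (edgeR adjusted p = 0.0137), where 6.67% of the 20285 genes tested were called higher and 5.73% lower. That call was lost without replicate 2 of either strain, where at most 4.08% of all genes were higher, and 2 members were called without replicate 1 of AKR/J, where 5.48% of all genes were called in each direction.

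Within strains, Slco1c1 was the member with the steadiest change. It rose in the late phase in AKR/J (log2 fold change 0.91, SE 0.10), in C57BL/6J (1.32, SE 0.12) and in Cav1-null (0.83, SE 0.10), and in the early phase in AKR/J (3.03, SE 0.38) and C57BL/6J (1.06, SE 0.27, edgeR adjusted p = 0.0419). In Cav1-null its early value of 1.03 was not called (SE 0.40, edgeR adjusted p = 0.0975). In 1 model of all 27 libraries, 0 members were called higher in the late phase of AKR/J, so that Slco1c1 lost its call there. Of all genes, 4.75% rose in that fit. Slco1c1 is also a gene of choroid plexus epithelium, and the summed level of 8 choroid plexus genes had medians of 258, 444 and 540 CPM on d12, d15 and d17 in AKR/J and of 356, 558 and 575 CPM in C57BL/6J. In Cav1-null these medians were 339, 451 and 369 CPM, so that the sum fell there in the late phase while Slco1c1 rose. The part of choroid plexus in the values of Slco1c1 was not tested.

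In AKR/J, 3 members rose and 1 fell in the early phase, where 14.8% of 19935 genes rose and 14.0% fell. Pecam1 rose by 1.00 and Cldn5 by 1.31 on the log2 scale, and Slc2a1 fell by 0.96. With library sizes alone, 3588 genes rose and 1214 fell, while 3 members rose and 0 fell, so that Slc2a1 lost its call. With the GC and length trend removed, 4.58% of all genes rose and 28.8% fell, the median was -0.57 over all genes and -0.56 over the members, Slco1c1 alone rose, and Cdh5 (-1.21) and Slc2a1 (-2.04) fell. Without replicate 2 of d15 only 2 members were called, both higher, while 11.4% of all genes rose and 10.3% fell. Without replicate 1 of d12 or replicate 1 of d15, 0 members fell as well, where 8.15% and 5.91% of all genes fell. In the late phase of AKR/J, 1 member rose and 5 fell, where 11.6% of 19989 genes rose and 10.4% fell. Those that fell were Pecam1 (-0.94), Cdh5 (-1.31), Slc2a1 (-1.18), Kdr (-0.80) and Tek (-1.01), and without replicate 2 or replicate 3 of d17 only 1 was still called lower, as were 2.94% and 3.53% of all genes. The d12 libraries of AKR/J had, beside the erythroid sum given above, a placental sum of 38.0 to 804 CPM over 12 genes, against at most 73.6 CPM in the other groups, and its part in these changes was not tested.

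In C57BL/6J, Slco1c1 was the single call of the early phase, where 7.08% of 19154 genes rose and 7.80% fell, and of the late phase, where 7.46% of 19888 genes rose and 5.58% fell. Here the spread between replicates was large. Without replicate 2 of d12, 6 members rose in the early phase, as did 15.2% of all genes. Without replicate 1 of d12 0 members rose and 0.586% of all genes did, and without any 1 library of d15 0 members and at most 0.0303% of all genes did. Without replicate 1 of d17, 6 members fell in the late phase and 1 rose, while of 21028 genes 3788 fell and 3202 rose. In the late phase, 10.6% of all genes rose and 4.87% fell with library sizes alone, 7.19% rose and 11.5% fell with the GC and length trend removed, and 6.90% rose and 12.7% fell in 1 model of all 27 libraries.

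In Cav1-null, Pecam1 (log2 fold change -0.76, SE 0.20) and Slc2a1 (-1.07, SE 0.10) fell in the early phase, where 11.8% of 19934 genes fell and 11.6% rose. Any 1 library of d15 left out gave 1 call among the members, with 5.16% to 5.66% of all genes lower. Replicate 2 of d12 left out gave 4, with 8.71% of all genes lower and 8.40% higher. In the late phase, Flt1 rose by 1.28 on the log2 scale (SE 0.16, edgeR adjusted p = 8.44e-05), Abcb1a by 0.73 and Slco1c1 by 0.83, where 14.5% of 20245 genes rose and 12.8% fell. Flt1 stood at 8.30 ± 1.81 CPM on d15 and 20.05 ± 3.24 CPM on d17, and the libraries did not overlap. In C57BL/6J the late change of Flt1 was 0.00 with an SE of 0.29.

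Whether these changes differed between Cav1-null and C57BL/6J was tested by the interaction of strain and day over 12 libraries. In the early phase all 10 values were negative, with a median of -0.94, 8 members and 3181 genes had an unadjusted p under 0.05, and 0 members were called, as were 0.00472% of 21191 genes in that direction. DESeq2 called 1 member and 0.854% of all genes lower, and edgeR called 5 lower without replicate 2 of C57BL/6J on d12, as it did 5.28% of all genes. In the late phase 9 of the 10 values were positive, 3 members and 4683 genes had an unadjusted p under 0.05, and 0 members were called, as were 0.0327% of 21431 genes in the higher direction and 0.219% in the lower. The largest value of the late phase was 1.25 for Flt1 (SE 0.37, edgeR adjusted p = 0.1001). DESeq2 called 1 member and 2.91% of all genes higher, and without replicate 1 of C57BL/6J on d17 edgeR called 6 members higher, as it did 16.8% of all genes.

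Reads across splice junctions gave a count of the same transcripts from a separate table of the same libraries. On the Cdh5 junction shown above, C57BL/6J had 12, 59 and 13 reads on d12, 74, 44 and 34 on d15, and 35, 2 and 8 on d17. Cav1-null had 8, 1 and 6 reads on d12, 6, 5 and 3 on d15, and 4, 0 and 1 on d17. On d15 the strains were far apart, and on d17 they overlapped. Scaled per 1000000 of all junction reads, of which libraries had 2792947 to 4697386, with no TMM factor, Cdh5 had 11.1 ± 4.203 in C57BL/6J on d15 and 1.43 ± 0.479 in Cav1-null, a log2 ratio of -2.95.

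The 3 junctions of Kdr together had 35.4 ± 4.998 against 6.09 ± 1.23 reads on the same scale on d15 (log2 ratio -2.54), and the 7 junctions of Pecam1 34.1 ± 1.28 against 12.3 ± 2.32 (-1.47). Log2 ratios were -1.71 for the Tek junction shown, -1.72 for the 3 junctions of Flt1 and -1.76 for the 2 of Abcb1a, and the strains did not overlap on d15 for any of these 6 genes, as for 45.2% of the 18637 genes with a mean of at least 1 junction read per 1000000 in these libraries. Few reads stand behind some of them, since Tek had 1 to 8 reads per Cav1-null library of d15 and Abcb1a 1 to 7. For Mfsd2a (-0.54) the libraries overlapped. For Slco1c1 (0.86) the read counts overlapped, at 83 to 123 in C57BL/6J and 110 to 168 in Cav1-null, but the scaled values did not. On d12 the log2 ratios of the 8 genes ran from -2.27 for Cdh5 to 0.65 for Slco1c1. Scaled values did not overlap for Cdh5, Kdr (-1.26) and Mfsd2a (-1.40), as for 22.7% of all genes. Before scaling, the strains tied at 46 reads for Mfsd2a. On d17 the log2 ratios ran from -2.99 for Cdh5 to 0.16 for Slco1c1, and only Pecam1 (-0.85) did not overlap, against 12.2% of all genes. The single junction of Slc2a1 was at 0 in all 9 C57BL/6J libraries and in 10 others, with 27 to 88 reads in the remaining 8. Gene counts of Slc2a1 were highest in C57BL/6J, and as the authors removed junctions with multi-mapped reads or short overhangs, a 0 can stand for removed reads and no fold change is given.

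Pecam1 and Slco1c1 had the 4 or more junctions needed to compare the end of the transcript with its start. The junctions were divided in the middle, and the log2 ratio of reads on those towards the 3′ end to those towards the 5′ end differed between Cav1-null and C57BL/6J by 0.26 for Pecam1 (two-sided exact permutation test within days, 8000 arrangements, p = 0.311, adjusted over the 2 genes 0.311). For Slco1c1 the difference was 1.98 (p = 0.035 by the same exact test, adjusted 0.07). On the last Slco1c1 junction, shown above, C57BL/6J had 15, 8 and 11 reads on d12, 0, 0 and 30 on d15, and 0, 69 and 0 on d17, whereas every Cav1-null library had 10 to 66 reads. The difference for Slco1c1 thus rests on 4 libraries listed at 0 on 1 junction, which can be reads removed by the filter. Flt1, whose soluble form ends early, had only 3 junctions, and its balance was not tested.

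Lists of other genes were counted in Cav1-null against C57BL/6J on d15. They are described by their counts and medians, beside the 31.8% of all genes that were lower and the 26.8% that were higher. Of 25 other endothelial genes 17 were lower and 2 higher (median -0.88), of 20 other junction and transporter genes of the barrier 14 were lower and 2 higher (-1.23), and of 16 genes of barrier induction by Wnt 14 were lower and 0 higher (-1.05). Of 17 genes of VEGF, angiopoietin and Notch signalling 11 were lower and 2 higher (-0.66), of 6 genes of the caveola coat 4 were lower and 1 higher (-1.29), and of 4 genes of fenestrated endothelium 2 were lower and 1 higher (-0.79). With the GC and length trend removed, the counts lower were 19, 14, 13, 10, 4 and 2, in the same order of lists.

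For lists of other cells, the share of called genes differed between lists. On d15, 9 of 14 pericyte and mural cell genes were lower and 2 higher (median -1.65), 8 of 10 genes of meningeal fibroblasts were lower (-1.59), and all 10 general neural genes were lower (-0.71), with 9 of them lower once the trend was removed. Of 10 erythroid genes 6 were higher and 2 lower (1.28), of 10 microglia genes 3 were higher and 4 lower (-0.07), of 8 choroid plexus genes 0 were higher and 3 lower (-0.37, with 7 lower once the trend was removed), of 8 yolk sac genes 2 were higher and 1 lower (0.23), and of 6 muscle genes 1 was lower (-1.32). Of the 12 placental genes only 1 was expressed enough to be tested, and it was lower (-1.07). The summed level of the 10 fibroblast genes was 5181 CPM in replicate 1 of C57BL/6J on d15, 397 and 656 CPM in replicates 2 and 3, and 95.5 to 181 CPM in Cav1-null. The part of these other cells in the values of the members was not tested.

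Over the 3 days, where 24.8% of all genes tested were lower and 20.3% higher, the lists were as follows, with the genes of largest change. Among endothelial genes, 17 of 25 were lower, led by Sox18 (log2 fold change -1.55), a transcription factor of vessel growth, Mmrn2 (-1.53), Cd93 (-1.39), Eng (-1.36), a co-receptor of TGF-beta ligands, and Tie1 (-1.32), the partner receptor of Tek. Of the VEGF and Notch list 11 of 17 were lower and 1 higher, with Aplnr (-1.74), the apelin receptor, Flt4 (-1.59), VEGF receptor 3, Notch1 (-1.57), Notch4 (-0.95) and Nrp2 (-0.93). Of the Wnt list 13 of 16 were lower and 0 higher, with the co-receptor Lrp5 (-1.53), Apcdd1 (-1.47), Foxf2 (-1.38), Lef1 (-1.21) and Adgra2 (-1.19), the receptor that lets endothelium read Wnt7 ligands. Once the trend was removed, 9 of the Wnt list were still lower, and Notch4 and Adgra2 were not called.

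Against the same shares of all genes, 24.8% lower and 20.3% higher, 11 of 20 other barrier junction and transporter genes were lower and 1 higher over the days, with the amino acid carriers Slc7a5 (-1.75) and Slc38a5 (-1.39) and the junction protein Cgnl1 (-1.11). Of the caveola coat 3 of 6 were lower and 1 higher, with Cav1 (-7.05), Cavin1 (-1.44), Ehd2 (-1.25) and Cav2 (1.18), which lies next to Cav1 and was 13.95 to 32.1 CPM in Cav1-null libraries and 5.33 to 24.3 CPM in the others. Of the fenestrated list Plvap (-1.35), the diaphragm protein of leaky vessels, and Plpp3 (-1.14) were lower and Gpihbp1 (1.22) and Nrn1 (0.29) higher, and neither of the higher genes was called once the trend was removed.

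For lists of other cells the shares of all genes are again 24.8% lower and 20.3% higher, and the 2 of 10 erythroid genes higher and 2 of 10 microglia genes lower are near these shares. Mural cell genes were lower in 8 and higher in 2 of 15 over the days, with Anpep (-1.58), Pdgfrb (-1.44), Notch3 (-1.37) and Vtn (-1.36) lower and Higd1b (1.49) and Rgs5 (0.51) higher. Rgs5, Hbb-bs, Aqp1 and En1, given here, were not called once the trend was removed. With single libraries left out, En1 was called in 3 of 18 fits, Aqp1 and Gpihbp1 in 8 and Folr1 in 10. Of the fibroblast list 5 of 10 were lower, with the collagens Col1a1 (-3.82), Col1a2 (-2.70) and Col3a1 (-2.36) and the transcription factors Foxc1 (-1.30) and Tbx18 (-0.63). Erythroid genes were higher in 2 of 10 (Hbb-bs 1.02 and Hbb-bt 0.93) and lower in 0, with Hbb-y at 0.35 and not called. Choroid plexus genes were lower in 3 of 8 (Clic6 -1.71, Aqp1 -0.95 and Folr1 -0.47), with Ttr at -0.01 and Otx2 at -0.26, neither called, though Otx2 was called lower once the trend was removed (-0.54, edgeR adjusted p = 0.00242). Microglia genes were lower in 2 of 10 (Csf1r -1.16 and Cx3cr1 -0.81). Neural genes were lower in 5 of 10 (Nes -1.60, En1 -1.17, Tubb3 -0.79, Sox2 -0.73 and Neurod1 -0.27), with Dcx at 0.07 and Map2 at -0.11, neither called. Of the yolk sac list Trf (-0.63) alone was called, with Afp at 1.59, and 0 of 7 muscle genes (Mylpf 0.44 and Acta1 -0.04) and 0 of 4 placental genes (Tpbpa 3.52) were called. On d12 and d17, in the counts as deposited, Cav1 on d17 was the only gene of any list that was called.

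**Figure D4:**
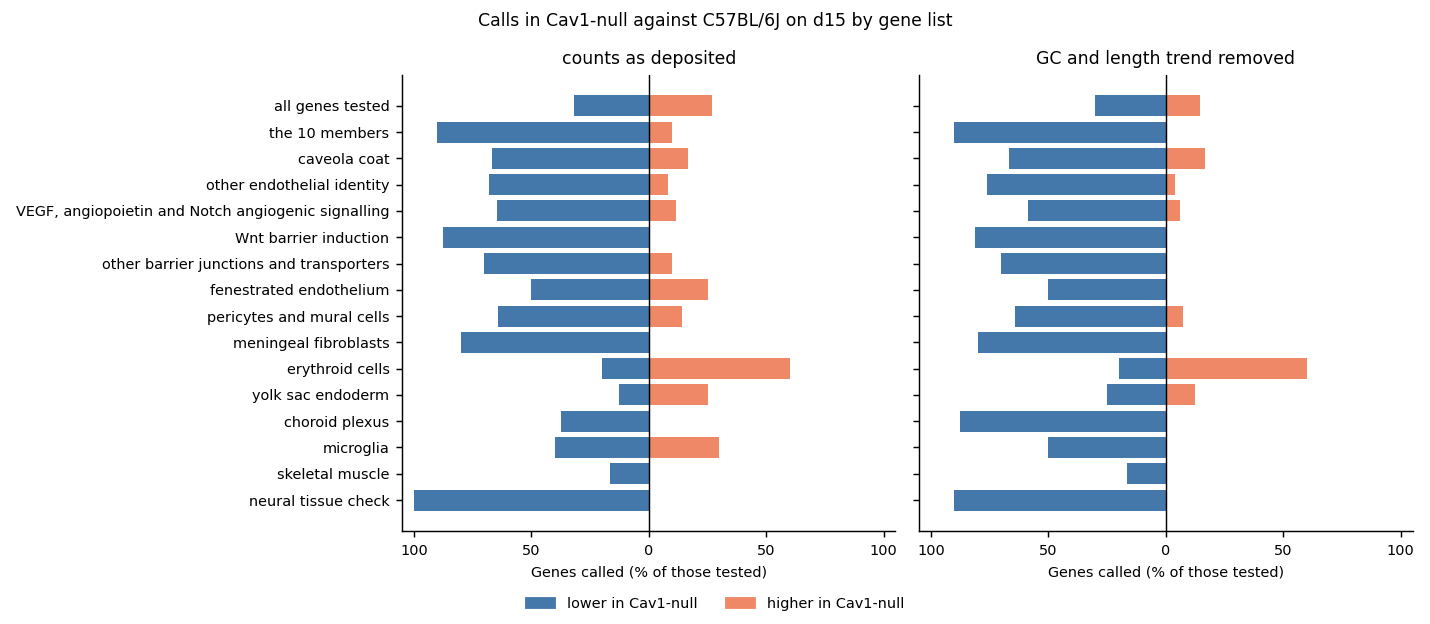
Share of the tested genes of each list (vertical) that were called lower (bars to the left) or higher (bars to the right) in Cav1-null than in C57BL/6J on d15, in percent on a linear axis (horizontal), from counts as deposited (left panel) and with the GC and length trend removed (right panel). All genes tested stand at 31.8% lower and 26.8% higher in the left panel, and the 10 members at 9 lower and 1 higher.

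The genes most like the members were found among 16436 genes as the Pearson correlation, over 27 libraries, with the mean z-score of the members. They were Aldh2 (0.96), Esam (0.96), Tnip1 (0.95), Eng (0.95), Jup (0.94), Ext2 (0.94), Adra2a (0.94), Niban2 (0.94), Chpf (0.94) and Slc7a5 (0.94). Of these, Esam and Eng belong to the list of other endothelial genes used above, and Slc7a5 to that of barrier junctions and transporters. All 10 have a GC content of 53.9% to 64.0%, and the libraries share strain, day and base composition. After the mean of each group was subtracted, the highest correlations were those of Esam (0.91), Ctsd (0.91), Ets1 (0.90), Timp2 (0.89) and Xpnpep1 (0.89).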

How the data were processed

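RNA-seq of the whole brain of female fetuses was available for 27 libraries of 3 strains and 3 days, with 3 replicates a group by the labels. The deposited gene table holds read counts, which the authors made from paired-end reads of poly(A)-selected RNA trimmed with cutadapt and fastp and aligned with STAR to GRCm39. The counting program and its use of strand are not given in the sources used here, so reads of overlapping antisense genes cannot be told apart. The deposited junction table holds read counts per splice junction, from which the authors had removed junctions with multi-mapped reads, short overhangs or few reads in all samples.

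Genes were filtered with filterByExpr within the libraries of each comparison, scaled by TMM and tested with edgeR 4.0.16 (glmQLFit and glmQLFTest, R 4.3.3), with Benjamini-Hochberg adjustment over all genes tested and calls at 0.05. Strains were compared on each day and over days with day as a term, phases within strains, and changes between strains by an interaction. Alternatives were DESeq2 1.42.0, RLE size factors, library sizes alone, no filter, 1 model of all 27 libraries, the replicate number as a block, each library left out, and, added after the data were seen, a GC and length trend removed per library and d12 and d17 alone, with all libraries or without 2 of C57BL/6J. Depth was 26363697 to 39759702 reads on genes, and the member with the fewest reads in any library had 32. A chi-square test found that no 2 replicates agreed within sampling noise. Shares of all genes whose strains did not overlap, added after the data were seen, were counted over genes with a mean of at least 1 CPM, or 1 junction read per 1000000, in the 6 libraries. The fits were tested on simulated counts. Junction balance was tested by exact permutation (numpy 2.4.6). Correlations and z-scores used log2(CPM + 1). Exon sequences come from GRCm39.

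The members, the gene lists and the tests were chosen with earlier results of these data known. All 10 members are named, and from each list the 5 called genes with the largest change over days in Cav1-null against C57BL/6J, and for lists of other cells also the 2 genes with the highest mean CPM, as well as Cav1 and the genes most like the members, 10 over all libraries and 5 after group means were subtracted. Abcb1b was added as the near copy of a member. Prl8a2, which this rule names for the placental list, did not pass the filter in that fit. Some genes that the rule names are not reported here.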

Additional observations from a re-analysis of the deposited data

How the results depend on the processing

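The 9 lower members in Cav1-null against C57BL/6J over days and on d15 were called in every alternative run with all days and libraries of these comparisons and in every fit without 1 library. Slco1c1 on d15 turned to -0.071 with the GC and length trend removed and kept its sign but not its call in 1 model of all 27 libraries. Over days, 0 members were called with d12 and d17 alone, both with all their libraries and with 2 left out. Counts of members called that moved by more than 1.5 times under other settings were, for Cav1-null against C57BL/6J on d12, 3 with DESeq2, 2 without a filter and 2 in the 27-library model, against 0, where 6.31%, 1.87% and 6.22% of all genes were lower. Against AKR/J, they were 1 on d12 with the trend removed (4 before), where 2.78% of all genes were higher against 9.93% and 16.9% lower against 9.65%. They were 1 on d15 in the 27-library model (5 before), where 3.89% of all genes were lower against 9.60%. On d17 they were 2 without a filter and 0 in the 27-library model (1 before), where 5.06% and 1.33% were higher against 6.67%. For phases, they were 3 in the late phase of AKR/J in the 27-library model, all lower (1 higher and 5 lower before), where 5.40% of all genes fell against 10.4%. They were 3 with DESeq2 and 0 with the replicate block in the early phase of C57BL/6J (1 before), where 13.5% and 0% rose against 7.08%. In its late phase they were 4 in the 27-library model (1 higher and 3 lower) and 2 with the replicate block (1 higher and 1 lower), against 1 higher before. Of all genes, 12.7% and 5.90% fell against 5.58%, and 6.90% and 5.96% rose against 7.46%. In the early phase of Cav1-null they were 4 with DESeq2, 5 without a filter (1 higher and 4 lower), 1 with the replicate block and 4 with the trend removed (2 before). There 14.1%, 7.63%, 8.52% and 9.56% of all genes fell against 11.8%. In its late phase they were 1 in the 27-library model (3 before), where 1.69% rose against 14.5%. For the difference in change between these strains, DESeq2 called 1 in the early phase and 1 in the late phase, and no filter gave 1 in the late phase, against 0, where 0.854% of all genes were lower, 2.91% higher and 1.40% higher. The cause was not tested.

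Leaving out single libraries gave 0 to 3 members called for Cav1-null against C57BL/6J on d12, 9 to 10 on d15, 0 to 8 on d17 and 9 to 9 over days. Against AKR/J it gave 0 to 2 on d12, 1 to 5 on d15, 0 to 2 on d17 and 2 to 3 over days, and for AKR/J against C57BL/6J 9 to 10. It gave 2 to 4 in the early and 2 to 6 in the late phase of AKR/J, 0 to 6 and 1 to 7 in C57BL/6J, 1 to 4 and 2 to 3 in Cav1-null, and 0 to 5 and 0 to 6 for the difference in change. For single days against C57BL/6J, signs turned for Abcb1a on d12 (-0.38 to 0.14, with 0.14 without C57BL/6J d12 replicate 2 and 0.02 without Cav1-null d12 replicate 2), Slco1c1 on d12 (-0.30 to 0.68, with -0.30 without Cav1-null d12 replicate 3) and Flt1 on d17 (-0.56 to 0.058, with 0.058 without C57BL/6J d17 replicate 1), none of them called. Over days against C57BL/6J, Slco1c1, not called, was -0.030 to 0.31 and below 0 without Cav1-null d12 replicate 3. Against AKR/J and in the phases, the number of members with a positive value also differed between some of these fits.

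The junction balance of Pecam1 turned to -0.21 when only the outer junctions at each end were compared (adjusted p = 0.853, exact permutation test), and without single libraries it was 0.13 to 0.43. That of Slco1c1 was 1.64 to 2.51 without single libraries. Its adjusted p was 0.0495 without replicate 3 of C57BL/6J on d12, 0.017 without replicate 3 on d15 and 0.016 without replicate 2 on d17, all by exact permutation. A minimum of 10 reads in all libraries left no value. Library sizes alone moved the median of all genes from 0.03 to 0.21 for Cav1-null against C57BL/6J on d15 and from 0.05 to 0.16 over days.

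Replicate numbers did not pair the samples: correlations of deviations between same-numbered libraries were -0.28 to 0.26, and in 0 of 12 comparisons was every pair over 0.1. With the replicate block, no count of members called other than those given above moved by over 1.5 times. Of the counts of all genes, those higher and lower went from 1353 and 1163 to 792 and 625 against AKR/J on d17, from 1 and 9 to 0 and 3 against C57BL/6J on d17, from 1356 and 1494 to 0 and 0 in the early phase of C57BL/6J, and from 7 and 47 to 0 and 0 for the late difference in change. Depth limits Abcb1a, with as few as 32 reads, and the junction counts.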
